A study of Mus musculus with 8 samples.

Results

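Collagen chains were described in mouse endometrium, the lining of the uterus, collected 8 h after mating. The members were all genes whose symbol in the authors' deposited table has the form Col, a number, the letter a and a number, which gave 43 genes of 24647 named genes. They lay on 47 transcript clusters, the probe sets that each stand for a transcript, of 41345 clusters on the array. Col1a2, Col5a1 and Col6a1 had several clusters, and the one with the lowest identifier represented the gene. By class, 11 were fibrillar chains, 8 were basement membrane chains (type IV, Col15a1 and Col18a1) and 24 were other types. Col26a1 stands in the table under its older symbol Emid2 and was therefore no member (log2 fold change 0.23, adjusted p 0.62 in the fit described further on).

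The Intact group held CBAF1 females, the F1 hybrids of CBA and C57Bl/6, mated with Intact Balb/c males and so exposed to seminal fluid. The SVX/VAS group held CBAF1 females mated with SVX/VAS Balb/c males, a mating the labels describe as without exposure to seminal fluid. There were 4 arrays per group (Affymetrix Mouse Gene 2.0 ST), each hybridised with total RNA pooled from 4 females, and replicate spread here is therefore spread between pools of animals. Mating was timed by video in both groups, while a copulatory plug was checked in females mated with Intact males only. Endometrium was scraped from the opened uterus and the muscle layer was discarded, per the labels. No age of the females is stated in the labels.

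Collagens are the main structural proteins of the extracellular matrix. Alpha chains wind into a triple helix, after which fibrillar types such as I, III and V assemble into the tension-bearing fibrils of the stroma, whereas type IV forms the sheet-like network under epithelia and around vessels. Other types decorate fibrils, form beaded filaments beside cells, or span the cell membrane. In the uterus, collagen of the stroma is mostly made by fibroblasts and is reorganised in the cycle and in pregnancy.

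Signals were log2 values, with array medians between 5.35 and 5.41. Correlations between arrays over all clusters were 0.971 to 0.984. All 12 epithelial markers and 11 of 12 fibroblast markers lay above the median signal of all clusters, 5.37. Of 10 smooth muscle markers, 8 did so too. The files give no detection calls and no scan dates, so background and scan batches were not examined. Signals of different clusters depend on their probes and are not compared as amounts of RNA.

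No collagen chain passed the test for a difference between Intact and SVX/VAS pools. The test was limma, a linear model with moderated variances fitted to all clusters, with Benjamini-Hochberg adjusted p under 0.05 as the call. Of the 43 chains, 0 were called, against 34 of 41345 clusters (0.0822%), with 0.0508% higher and 0.0314% lower in Intact pools. At an unadjusted p under 0.05, 1 chain was higher in Intact pools, Col20a1, and 0 were lower. Over all clusters the share at that level was 11.9%, with 5.13% higher and 6.78% lower. The submitters' criteria were a fold of 1.5 or more and an unadjusted p below 0.05, which 0 chains and 2.47% of clusters met (0.9% higher and 1.57% lower). The Intact and SVX/VAS values overlapped for all 43 chains, while they did not overlap for 8.17% of clusters (3.37% higher and 4.81% lower).

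The methods' t-test, as the authors' deposited p-values give it, put 2 chains, Col20a1 and Col8a1, at an unadjusted p under 0.05, against 12% of clusters. After adjustment it called 0 chains and 0.0242% of clusters, and at the submitters' criteria 0 chains and 1.86% of clusters. The largest fold among the chains was 1.23. For 36 of 43 chains (83.7%), the 95% interval of the difference lay within 1.5-fold in either direction, against 68.4% of all clusters. Among the 12 brightest chains, above the upper quartile of signal, it was the reverse, with 5 of 12 (41.7%) against 75.3% of clusters of that brightness. The 7 chains with wider intervals were Col1a1, Col1a2, Col3a1, Col4a1, Col6a1, Col6a2 and Col6a4, for which a difference of 1.5-fold was not excluded at this number of arrays.

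**Figure D1:**
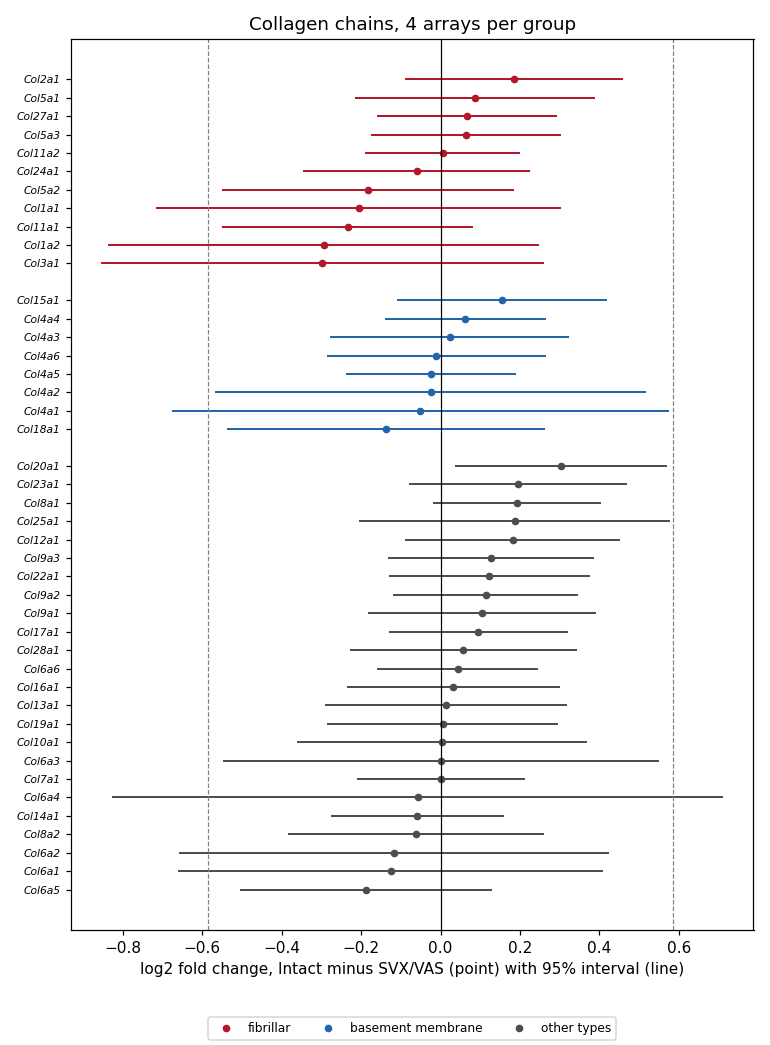
Log2 fold change of each of the 43 collagen chains (horizontal axis, Intact minus SVX/VAS), with points for the estimate and lines for the 95% interval, 4 arrays per group. Dashed lines mark 1.5-fold in either direction; every point lies between them, the interval of Col20a1 is the one that does not reach 0, and the widest intervals belong to type I, III, IV and VI chains.

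The fibrillar chains of types I and III, the main fibril-forming collagens of connective tissue, had lower means in Intact pools, by less than the spread between pools. Col1a1 (chromosome 11, 56.0 cM in the deposited table) encodes the more numerous chain of type I collagen. Its log2 signal was 8.65, 9.46, 9.58 and 9.23 in Intact pools, against 9.12, 9.61, 9.78 and 9.24 in SVX/VAS pools. Intact pool 1 was the lowest of all arrays and the other 3 Intact pools lay inside the SVX/VAS range. The means were 9.23 ± 0.41 in Intact and 9.44 ± 0.31 in SVX/VAS pools (SD, n = 4 each). Col1a1 had a log2 fold change of -0.21 (SE 0.22, adjusted p 0.77 by limma), with a 95% interval between 1.64-fold lower and 1.23-fold higher.

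Col1a2, the partner chain of type I collagen (chromosome 6, 0.68 cM), had log2 signals of 7.69, 8.61, 8.74 and 8.32 in Intact pools, against 8.28, 8.75, 8.99 and 8.52 in SVX/VAS pools. The order of the pools was that of Col1a1 in both groups, with Intact pool 1 lowest and SVX/VAS pool 3 highest. Col1a2 had a log2 fold change of -0.29 (SE 0.24, adjusted p 0.68). A second Col1a2 cluster had a log2 fold change of -0.41 (SE 0.34, adjusted p 0.69), with Intact pool 4 lowest at 5.19 and Intact pool 3 highest at 6.85, so the clusters agree in sign and not in the order of the pools.

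Col3a1, the single chain of type III collagen (chromosome 1), had log2 signals of 8.26, 9.25, 9.42 and 8.72 in Intact pools, against 8.96, 9.39, 9.42 and 9.08 in SVX/VAS pools. Intact pools 1 and 4 lay below every SVX/VAS pool, and the other Intact pools lay within the SVX/VAS range. Col3a1 had a log2 fold change of -0.30 (SE 0.25, adjusted p 0.68), the lowest of the 43 chains. Without Intact pool 1 these 3 differences shrank to -0.013 for Col1a1, -0.078 for Col1a2 and -0.081 for Col3a1, with adjusted p of 0.99, 0.92 and 0.92. Without Intact pool 3 they grew instead, to -0.32, -0.43 and -0.47.

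The start of the Col1a2 gene is shown because type I chains are the main products of stromal fibroblasts. The window is 300 bases from RefSeq on GRCm38.p6, plus strand, chr6:4505368-4505667, mostly upstream of the annotated start. Capitals mark CCAAT and GGGCGG boxes on either strand (ATTGG and CCGCCC on the printed strand for the reverse), motifs that general activators of many promoters can bind.
Col1a2: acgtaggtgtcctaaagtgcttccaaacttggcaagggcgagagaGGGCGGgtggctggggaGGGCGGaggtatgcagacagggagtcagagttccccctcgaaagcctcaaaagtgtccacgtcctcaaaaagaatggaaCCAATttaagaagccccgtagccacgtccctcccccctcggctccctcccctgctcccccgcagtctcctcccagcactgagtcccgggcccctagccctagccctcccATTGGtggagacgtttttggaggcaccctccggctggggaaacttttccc
It held 2 CCAAT matches, 2 GGGCGG matches and no TATAAA on either strand. The matches do not overlap each other in this window. Of 35 member genes with a window in the RefSeq table, 13 held CCAAT, 22 held GGGCGG and 5 held TATAAA. The shares over all 32851 windows of this length were 37.4%, 35.7% and 13.6%. A gene counted if any of its windows held the motif, while the shares are of single windows, so these are not on the same basis. Such matches are letters and not shown to be used.

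The minor fibrillar chains did not share one direction. Col5a2, a chain of type V collagen that is built into type I fibrils, had log2 signals of 6.01, 6.64, 6.74 and 6.58 in Intact pools, against 6.57, 6.63, 6.86 and 6.63 in SVX/VAS pools. Intact pool 1 stood alone below the rest, and the other Intact pools were level with SVX/VAS. Col5a2 had a log2 fold change of -0.18 (SE 0.16, adjusted p 0.71), which was -0.023 without Intact pool 1 and -0.26 without Intact pool 3.

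Col2a1 encodes the main fibrillar collagen of cartilage. Its log2 signals were 5.97, 6.04, 5.56 and 5.78 in Intact pools, against 5.64, 5.73, 5.69 and 5.55 in SVX/VAS pools, and 3 Intact pools lay above the SVX/VAS range. Col2a1 had a log2 fold change of 0.18 (SE 0.12, adjusted p 0.59). Col11a1, the type XI chain that sets fibril diameter in cartilage, had 4.95, 4.90, 4.84 and 5.005 in Intact pools, against 4.91, 5.54, 5.16 and 5.02 in SVX/VAS pools. SVX/VAS pool 2 was highest, and the log2 fold change of -0.23 (SE 0.14, adjusted p 0.55) was -0.11 without it. The signal lay under the median of all clusters. The other 5 fibrillar chains, Col5a1, Col5a3, Col11a2, Col24a1 and Col27a1, had log2 fold changes between -0.060 and 0.086. A second Col5a1 cluster gave 0.24 (SE 0.12, adjusted p 0.47), against 0.086 for the representing one.

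Basement membrane chains gave differences close to 0 on average, with wide spread for the most widespread type IV pair. Col4a1 and Col4a2 encode the chains that together form the type IV collagen found in nearly all basement membranes. Col4a1 (chromosome 8) had log2 signals of 7.19, 8.11, 8.47 and 7.36 in Intact pools, against 7.59, 7.77, 8.14 and 7.84 in SVX/VAS pools. The Intact pools bracketed the SVX/VAS pools, with Intact pools 1 and 4 below all of them and Intact pool 3 above. The highest Intact pool was 2.44-fold above the lowest, while that range was 1.46-fold in SVX/VAS. Col4a1 had a log2 fold change of -0.051 (SE 0.28, adjusted p 0.96).

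Col4a2 had log2 signals of 6.28, 7.23, 7.34 and 6.56 in Intact pools, against 6.70, 6.79, 7.17 and 6.84 in SVX/VAS pools. Intact pools 1 and 4 lay below all SVX/VAS pools and Intact pools 2 and 3 above all of them. Col4a2 had a log2 fold change of -0.025 (SE 0.24, adjusted p 0.98). Without Intact pool 1, the log2 fold changes turned positive, 0.15 for Col4a1 (adjusted p 0.88) and 0.17 for Col4a2 (adjusted p 0.83). Without Intact pool 3 they were -0.28 and -0.19.

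The windows of this pair are shown because the genes lie head to head and their signals followed each other across the pools. Both come from RefSeq on GRCm38.p6 and are 300 bases long, Col4a1 on the minus strand at chr8:11312777-11313076 and Col4a2 on the plus strand at chr8:11312555-11312854. Capitals mark CCAAT and GGGCGG boxes on either strand.
Col4a1: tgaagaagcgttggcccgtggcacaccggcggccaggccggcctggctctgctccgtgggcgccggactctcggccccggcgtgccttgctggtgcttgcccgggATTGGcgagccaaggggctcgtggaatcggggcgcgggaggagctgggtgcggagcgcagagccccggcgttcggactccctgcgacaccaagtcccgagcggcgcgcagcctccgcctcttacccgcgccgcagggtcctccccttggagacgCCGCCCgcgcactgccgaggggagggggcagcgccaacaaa
Col4a2: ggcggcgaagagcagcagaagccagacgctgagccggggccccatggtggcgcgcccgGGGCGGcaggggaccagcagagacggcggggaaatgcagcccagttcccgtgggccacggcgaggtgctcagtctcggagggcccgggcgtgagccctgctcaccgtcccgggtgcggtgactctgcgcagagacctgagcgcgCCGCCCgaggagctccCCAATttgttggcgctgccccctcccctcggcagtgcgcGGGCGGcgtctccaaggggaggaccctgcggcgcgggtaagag
The windows overlap by 78 bases, and 1 GGGCGG match lies in the overlap and is counted in both. Col4a1 held 1 CCAAT and 1 GGGCGG match, Col4a2 held 1 CCAAT and 3 GGGCGG matches, and neither held TATAAA.

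Col15a1 and Col18a1 encode collagens of the basement membrane zone that carry sugar chains, and the tail of the Col18a1 product can be released as endostatin. Col15a1 had log2 signals of 5.97, 6.12, 6.34 and 6.06 in Intact pools, against 5.75, 6.05, 6.03 and 6.04 in SVX/VAS pools. SVX/VAS pool 1 stood below the other 3 of its group, and 3 Intact pools lay above all SVX/VAS pools. Col15a1 had a log2 fold change of 0.15 (SE 0.12, adjusted p 0.65). Col18a1 (chromosome 10) had 6.26, 6.68, 6.97 and 6.35 in Intact pools, against 6.49, 6.72, 6.98 and 6.62 in SVX/VAS pools, a nearly shared range with Intact pools 1 and 4 lowest. Col18a1 had a log2 fold change of -0.14 (SE 0.18, adjusted p 0.81).

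The remaining type IV chains have narrower tissue ranges, such as the Col4a3, Col4a4 and Col4a5 network of the kidney filter. Their log2 fold changes, with that of Col4a6, lay between -0.024 and 0.063. Col4a5 (X chromosome) had means of 6.40 ± 0.11 in Intact and 6.42 ± 0.073 in SVX/VAS pools (SD, n = 4 each).

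Fibril-associated collagens sit on the surface of fibrils through interrupted triple helices. Against 50.1% of all clusters, 8 of 9 of these collagens had positive log2 fold changes, with a median of 0.11 and 0 called. Col20a1, one of these, had log2 signals of 6.07, 6.48, 6.24 and 6.29 in Intact pools, against 5.85, 6.05, 6.12 and 5.85 in SVX/VAS pools. Intact pools 2, 3 and 4 lay above all SVX/VAS pools, and Intact pool 1 lay among them. Col20a1 averaged 6.27 ± 0.17 in Intact and 5.97 ± 0.14 in SVX/VAS pools (SD, n = 4 each). Col20a1 had a log2 fold change of 0.30 (SE 0.12), 1.23-fold higher, with an adjusted p of 0.35 by limma and an unadjusted p of 0.029.

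Col12a1, a chain that links fibrils to the surrounding matrix, had log2 signals of 5.87, 6.21, 5.95 and 5.80 in Intact pools, against 5.64, 5.95, 5.80 and 5.72 in SVX/VAS pools. Intact pool 2 was highest and the groups overlapped. Col12a1 had a log2 fold change of 0.18 (SE 0.12, adjusted p 0.59). Col22a1, found at tissue junctions such as that of muscle and tendon, had 5.99, 5.59, 5.88 and 5.94 in Intact pools, against 5.66, 5.79, 5.67 and 5.79 in SVX/VAS pools, with Intact pool 2 the lowest of all arrays. Col22a1 had a log2 fold change of 0.12 (SE 0.11, adjusted p 0.71).

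The type IX chains coat type II fibrils in cartilage. Col9a2 had log2 signals of 7.31, 7.19, 7.29 and 7.15 in Intact pools, against 6.99, 7.12, 7.33 and 7.05 in SVX/VAS pools, where pool 3 was the highest of all arrays and the other 3 lay below every Intact pool. Col9a2 had a log2 fold change of 0.11 (SE 0.10, adjusted p 0.71). Col9a3 had 5.44, 5.34, 5.70 and 5.54 in Intact pools, against 5.35, 5.52, 5.44 and 5.20 in SVX/VAS pools, which overlapped for most of their range. Col9a3 had a log2 fold change of 0.13 (SE 0.11, adjusted p 0.71). Col9a1, Col14a1, Col16a1 and Col19a1 had log2 fold changes between -0.059 and 0.10.

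Type VI chains form beaded filaments that lie between cells and the fibrils. Col6a1 (chromosome 10) had log2 signals of 8.41, 8.94, 9.47 and 8.67 in Intact pools, against 8.72, 8.88, 9.42 and 8.97 in SVX/VAS pools. Pool 3 was highest in both groups, and Intact pools 1 and 4 were the lowest of the 8 arrays. Col6a1 had a log2 fold change of -0.13 (SE 0.24, adjusted p 0.88), which was 0.029 without Intact pool 1 and -0.33 without Intact pool 3. One of the other clusters of Col6a1 spread as widely, between 6.05 and 7.53 in Intact and between 6.39 and 6.94 in SVX/VAS pools. Its remaining cluster did not, with 7.87 to 8.06 in Intact and 7.89 to 8.15 in SVX/VAS pools. Both gave small differences, -0.071 and -0.046 on the log2 scale.

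Col6a2 and Col6a3, the partners of Col6a1 in the common type VI molecule, had log2 fold changes of -0.12 (SE 0.24) and 0.0017 (SE 0.24). Col6a4, a chain related to Col6a3, spread most of all 43 chains, between 7.90 and 9.41 in Intact pools (2.85-fold) and between 8.01 and 9.02 in SVX/VAS pools (2.01-fold). Col6a4 had a log2 fold change of -0.057 (SE 0.34, adjusted p 0.97). Without Intact pool 1 the log2 fold changes of Col6a2, Col6a3 and Col6a4 were 0.11, 0.22 and 0.15, and without Intact pool 3 they were -0.30, -0.17 and -0.35. Col6a5 had 4.17, 4.55, 4.26 and 4.60 in Intact pools, against 4.57, 4.33, 4.69 and 4.76 in SVX/VAS pools, with Intact pools 1 and 3 lowest. Col6a5, with a signal under the median of all clusters, had a log2 fold change of -0.19 (SE 0.14, adjusted p 0.65). That of Col6a6 was 0.043.

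The network-forming short chains included Col8a1, which is made by vascular and other mesenchymal cells. Its log2 signals were 4.87, 4.996, 4.77 and 4.98 in Intact pools, against 4.70, 4.78, 4.75 and 4.61 in SVX/VAS pools. Intact pool 3 lay just inside the SVX/VAS range and the other Intact pools lay above it, all of them under the median signal of all clusters. Col8a1 had a log2 fold change of 0.19 (SE 0.093, adjusted p 0.46). Col8a2 and Col10a1 had log2 fold changes of -0.061 and 0.0035.

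The 4 transmembrane collagens, which stand in the cell surface and can be shed, all had positive log2 fold changes, against 50.1% of all clusters. Their median was 0.14 and 0 were called. Col23a1 had log2 signals of 6.39, 6.35, 6.70 and 6.29 in Intact pools, against 6.08, 6.28, 6.40 and 6.18 in SVX/VAS pools. The lowest Intact pool was below only the highest SVX/VAS pool, and Intact pool 3 was above all. Col23a1 had a log2 fold change of 0.19 (SE 0.12, adjusted p 0.57). Col25a1, known from neurons, had 5.89, 6.01, 6.25 and 6.30 in Intact pools, against 5.51, 6.02, 6.29 and 5.87 in SVX/VAS pools, with SVX/VAS pool 1 below the rest. Col25a1 had a log2 fold change of 0.19 (SE 0.17, adjusted p 0.72).

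Col17a1, which anchors epithelial cells through hemidesmosomes, had log2 signals of 5.69, 5.57, 5.87 and 5.77 in Intact pools, against 5.50, 5.67, 5.66 and 5.69 in SVX/VAS pools. Intact pools 3 and 4 were the highest, and Intact pool 2 lay near the bottom. Col17a1 had a log2 fold change of 0.095 (SE 0.098, adjusted p 0.75). Col13a1 gave 0.013. Col7a1, the anchoring fibril collagen under stratified epithelia, averaged 6.07 in both groups, with a log2 fold change of 0.00062, and Col28a1 gave 0.057.

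Set side by side, the medians of the classes lay close to 0. The median log2 fold change was -0.060 for the 11 fibrillar chains (5 positive, 6 negative), -0.017 for the 8 basement membrane chains (3 positive, 5 negative) and 0.038 for the 24 other types (18 positive, 6 negative). Over all clusters it was 0.00047, with 50.1% positive. When single arrays were left out, the medians ran from -0.12 to 0.0064 for fibrillar chains, positive only without SVX/VAS pool 3, from -0.045 to 0.081 for basement membrane chains, and from 2.4e-05 to 0.091 for the other types. With type IV alone as the basement membrane class the median stayed at -0.017. For all 8 basement membrane chains it was 0.0082 after quantile normalization. It was also positive without Intact pool 1 (0.031), Intact pool 4 (0.081) or SVX/VAS pool 3 (0.031), so its sign depends on the normalization and on single arrays. Fold changes of 33 chains above the median signal of all clusters had a median of 0.013, and those of the 10 chains under it had one of 0.0042. The differences between classes were not tested, and chains of 1 class are not independent of each other.

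In the brighter chains, the spread between pools of 1 group had a common pattern. Of the 12 chains with the brightest signal (above 6.71, the upper quartile of all clusters on the log2 scale, a bound chosen after the values were seen), Intact pool 1 was the lowest Intact pool for 10, and Intact pool 3 the highest for 10. SVX/VAS pool 3 was the highest of its group for all 12. Among all clusters of that brightness these shares were 24.4%, 17.3% and 22%. The exceptions in Intact pools were Col5a3 and Col9a2, for which Intact pool 4 was lowest. A low pool 1 was not limited to the Intact group. SVX/VAS pool 1 was the lowest of its group for all 12 chains except Col5a1 and Col5a3.

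The median SD of those 12 chains was 0.48 in Intact and 0.23 in SVX/VAS pools, against 0.16 and 0.12 for all clusters of that brightness. The ratio of the highest to the lowest Intact pool was 1.91 for Col1a1, 2.22 for Col3a1 and 2.34 for Col6a2. Over all 43 chains, Intact pool 1 was the lowest of its group for 18 and Intact pool 3 the highest for 24. SVX/VAS pool 3 was the highest of its group for 21 and SVX/VAS pool 1 the lowest for 22. In the same order, the shares over all clusters were 23.2%, 27.4%, 22.4% and 24.3%. Among the 10 chains at or under the median signal, the first 3 of these counts were 2, 2 and 0. No chain was called, and the count at an unadjusted p stayed at 1, without Intact pool 1. Without Intact pool 3 that count was 3, all higher in Intact pools, again with 0 called.

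**Figure D2:**
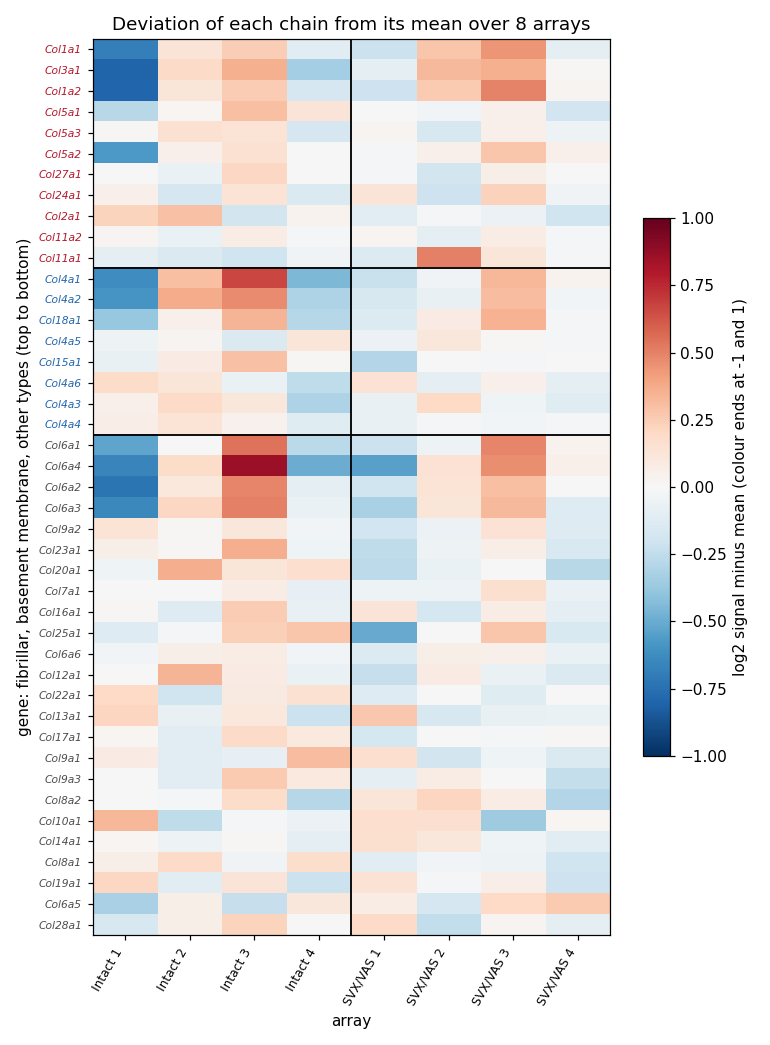
Colour shows the log2 signal of each chain (rows) on each of the 8 arrays (columns, Intact left of SVX/VAS) minus that chain's mean over the 8 arrays. Row blocks are fibrillar, basement membrane and other types from top to bottom, each ordered by mean signal. In the brighter type I, III, IV and VI chains at the top of each block, pool 1 of both groups is blue, more so in Intact. Intact pool 3 and SVX/VAS pool 3 are red there.

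Fibroblast markers shared part of this pattern. On Intact pool 1, 12 of 12 markers lay below their own mean over the arrays, and 11 of 12 did so on Intact pool 4 and on SVX/VAS pool 1. On the remaining arrays 2 did so on Intact pool 2, 2 on Intact pool 3, 6 on SVX/VAS pool 2, 1 on SVX/VAS pool 3 and 1 on SVX/VAS pool 4. Counts over all chains of a class, dim ones included, went another way on SVX/VAS pool 4. There, 7 of 11 fibrillar, 7 of 8 basement membrane and 18 of 24 other chains lay below their own mean. On Intact pool 1 those counts were 6 of 11, 5 of 8 and 11 of 24, against 12 of 12 markers. The mean log2 signal of the list was 7.26, 7.89, 8.07 and 7.504 in Intact pools, against 7.47, 7.72, 8.05 and 7.97 in SVX/VAS pools. Its median log2 fold change was -0.15 with 0 of 12 called. Fbln1, Dcn and Lum of this list also stand in the list of fibril partners. In bulk tissue, fewer cells of a type and less RNA per cell cannot be told apart, and the part of these markers in the collagen values was not tested.

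Pdgfra, the fibroblast receptor for platelet-derived growth factor, had log2 signals of 7.60, 8.62, 8.84 and 8.05 in Intact pools, against 8.34, 8.39, 9.07 and 8.89 in SVX/VAS pools. It repeats the low Intact pool 1 and the high pool 3 of both groups. Thy1, a surface protein of many fibroblasts, had 6.54, 6.80, 7.21 and 6.38 in Intact pools, against 6.16, 6.37, 6.87 and 6.44 in SVX/VAS pools, where pool 3 is again highest. Fbln1, a matrix protein, went another way, with 9.52, 9.57, 9.31 and 9.80 in Intact pools, against 9.89, 9.92, 9.71 and 9.77 in SVX/VAS pools. Pool 3 was the lowest of each group for Fbln1, and its log2 fold change was -0.28 (SE 0.12, adjusted p 0.41).

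**Figure D3:**
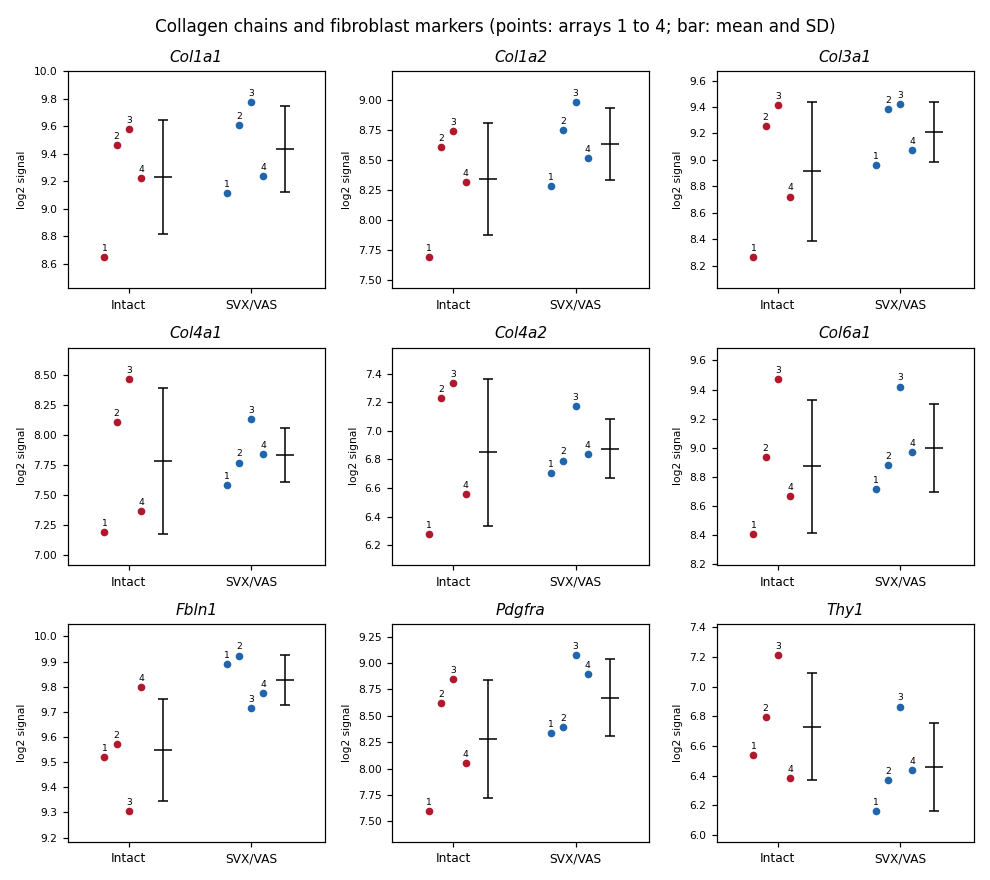
Log2 signal (vertical axis, with its own range in each panel) of 6 collagen chains and of the fibroblast markers Fbln1, Pdgfra and Thy1 in Intact and SVX/VAS pools; points are arrays with their replicate number, and the bar beside them is the mean and SD of 4. Intact pool 1 is the lowest Intact point in all 6 chains and in Pdgfra, at 8.65 for Col1a1 and 7.60 for Pdgfra, and the groups overlap in every panel.

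Other cell types varied as well. Endothelial markers had list means of 5.67, 6.13, 6.24 and 5.81 in Intact pools, against 5.90, 5.95, 6.20 and 6.13 in SVX/VAS pools, and pericyte markers 6.11, 6.50, 6.57 and 6.12 in Intact, against 6.11, 6.50, 6.67 and 6.35 in SVX/VAS pools. Pool 3 was the highest of each group in both lists. Smooth muscle markers had 6.45, 7.37, 6.98 and 7.38 in Intact pools, against 6.64, 6.95, 7.15 and 7.12 in SVX/VAS pools, low in Intact pool 1 for all 10 genes but not high in Intact pool 3. Epithelial markers ranged between 9.66 and 10.08 in Intact and between 9.72 and 9.97 in SVX/VAS pools, with Intact pool 3 lowest of the 8. Macrophage markers ranged between 6.18 and 6.70 in Intact and between 6.40 and 6.74 in SVX/VAS pools, and neutrophil markers between 5.10 and 5.43 in Intact and between 4.95 and 5.14 in SVX/VAS pools. Red cell markers, 5 of 7 measured, ranged between 4.83 and 5.15 in Intact and between 4.60 and 4.96 in SVX/VAS pools. No marker of these lists was called.

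Of the 12 neutrophil markers, 11 had positive log2 fold changes, with a median of 0.12, 2 higher and 1 lower at an unadjusted p under 0.05. Over all clusters 50.1% were positive, and the shares at that p were 5.13% higher and 6.78% lower. S100a8, a calcium-binding protein abundant in neutrophils, was the only marker of all lists past the submitters' criteria. S100a8 had log2 signals of 3.26, 4.19, 2.84 and 3.29 in Intact pools, against 2.49, 2.79, 2.45 and 3.06 in SVX/VAS pools, all under the median signal of all clusters. The groups overlapped, and the log2 fold change was 0.70 (SE 0.27, unadjusted p 0.029, adjusted p 0.35 by limma). Ly6g had the smallest p of the list and went the other way, with every Intact pool below every SVX/VAS pool. Its log2 fold change was -0.37 (SE 0.10, adjusted p 0.20 by limma). Cxcr2 was higher, with a log2 fold change of 0.54 (SE 0.19, adjusted p 0.30 by limma) and overlapping groups.

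Genes that modify and fold collagen chains in the endoplasmic reticulum had positive log2 fold changes in 14 of 20 cases, with a median of 0.10, 4 higher and 0 lower at an unadjusted p under 0.05, and 0 called. Over all clusters 50.1% were positive, 5.13% were higher and 6.78% lower at that p, and 0.0822% were called. Creb3l1, a transcription factor known for driving type I collagen genes in bone-forming cells, had log2 signals of 7.80, 8.27, 7.66 and 8.08 in Intact pools, against 6.91, 6.82, 7.06 and 7.36 in SVX/VAS pools. Every Intact pool lay above every SVX/VAS pool. Creb3l1 had a log2 fold change of 0.92 (SE 0.17, adjusted p 0.089), 1.89-fold higher, the only member of the list past the submitters' criteria. Its call depended on the fit: adjusted p was 0.046 with an intensity trend in the variance and 0.032 when only clusters above the median signal or only those with 1 gene symbol were tested. Over all alternatives it lay between 0.032 and 0.23.

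Colgalt1, listed as Glt25d1, adds galactose to collagen hydroxylysines. Its log2 signals were 8.08, 8.30, 8.40 and 8.36 in Intact pools, against 8.04, 7.89, 7.89 and 7.85 in SVX/VAS pools, which did not overlap. Colgalt1 had a log2 fold change of 0.37 (SE 0.10, adjusted p 0.20). P3h2, listed as Leprel1, hydroxylates prolines of type IV and other collagens and had 6.88, 7.11, 7.18 and 7.11 in Intact pools, against 6.79, 6.86, 6.72 and 6.74 in SVX/VAS pools. These groups did not overlap either, with a log2 fold change of 0.30 (SE 0.096, adjusted p 0.26). P4ha1, a catalytic subunit of the prolyl hydroxylase that stabilises the helix, had a log2 fold change of 0.24 (SE 0.10, adjusted p 0.40). Serpinh1, the collagen chaperone of the same list, had the largest p of its members, with a log2 fold change of 0.026, and was chosen after its value was seen.

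Of 17 genes for secretion and propeptide removal, 1 was higher and 3 were lower at an unadjusted p under 0.05, and 0 were called, against 5.13% higher, 6.78% lower and 0.0822% called over all clusters. Adamts3, which trims the amino end of procollagen II in cartilage, had a log2 fold change of 0.34 (SE 0.10, adjusted p 0.24). Tll1, a protease related to Bmp1 that trims the carboxyl end, had 4.78, 5.25, 5.18 and 5.25 in Intact pools, against 5.64, 5.54, 5.31 and 5.98 in SVX/VAS pools, with no overlap. Tll1 had a log2 fold change of -0.50 (SE 0.16, adjusted p 0.27). The mean signals of Adamts3 and Tll1 lay under the median of all clusters. Mia2, part of the export machinery for large cargo, gave -0.43 (SE 0.14, adjusted p 0.26), and another cluster, listed as Ctage5, gave -0.10. Klhl12, an adaptor for the enlarged transport vesicles, gave -0.27 (SE 0.10, adjusted p 0.33).

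None of 7 crosslinking genes passed an unadjusted p of 0.05. The 4 with the smallest p were Loxl4 (log2 fold change 0.26), Pxdn (0.21), Tgm2 (-0.13) and Loxl1 (0.15). Of 21 fibril-binding proteoglycans and partners, 0 were called and 2 were lower at an unadjusted p, Ecm2 with -0.42 (SE 0.14, adjusted p 0.28) and Fbln1. The share lower over all clusters was 6.78%. Tnc, a matrix protein of remodelling tissue, had 5.18, 6.32, 5.72 and 5.25 in Intact pools, against 5.08, 4.83, 5.56 and 4.96 in SVX/VAS pools. Intact pool 2 was the highest of all arrays, and the log2 fold change was 0.51 (SE 0.26, adjusted p 0.49). The other gene of the 4 with the smallest p was Kera, at 0.21. Ecm2, Tnc and Kera had mean signals under the median of all clusters.

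Of 21 basement membrane partners, 0 were called and 1 was lower at an unadjusted p, against 6.78% lower over all clusters. The gene was Lamb2, a laminin chain, with 7.31, 7.46, 7.39 and 7.91 in Intact pools, against 7.76, 8.11, 8.07 and 7.89 in SVX/VAS pools. Intact pool 4 reached into the SVX/VAS range. Lamb2 had a log2 fold change of -0.44 (SE 0.15, adjusted p 0.29). Lama1, Npnt and Lamb1 followed with 0.22, 0.31 and 0.19, and the mean signal of Lama1 lay under the median of all clusters.

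Among 13 collagen receptors, 1 was called, against 0.0822% of all clusters. The list was chosen with earlier results of these data known, so this count is no measure of receptors as a group. Adgrg1, listed as Gpr56 (chromosome 8, 45.0 cM), is an adhesion G protein-coupled receptor for type III collagen, a pairing known from mouse brain. Its log2 signals were 7.95, 7.93, 7.94 and 7.88 in Intact pools, against 8.65, 8.59, 8.53 and 8.52 in SVX/VAS pools, tight within each group and far apart between them. Adgrg1 fell 1.57-fold in Intact pools by limma (log2 -0.65, SE 0.081, adjusted p 0.034). The call was lost without any 1 of the 8 arrays, with adjusted p between 0.051 and 0.14, while the log2 fold change stayed between -0.67 and -0.62.

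Lair1, an inhibitory collagen receptor of leukocytes, had log2 signals of 5.11, 4.96, 4.98 and 4.88 in Intact pools, against 5.14, 5.33, 5.30 and 5.39 in SVX/VAS pools. The groups did not overlap, and the log2 fold change was -0.31 (SE 0.096, adjusted p 0.25). The mean signal of Lair1 lay under the median of all clusters. Itga2, the integrin subunit that pairs with Itgb1 to bind collagen, had 10.24, 10.43, 9.61 and 10.71 in Intact pools, against 9.85, 9.86, 9.46 and 9.65 in SVX/VAS pools. Intact pool 3 lay inside the SVX/VAS range, and the log2 fold change was 0.54 (SE 0.22, adjusted p 0.37). Ddr1, a receptor tyrosine kinase for collagen, had -0.13 (SE 0.082) on the representing cluster and -0.34 (SE 0.12, adjusted p 0.33) on its second one. The representing cluster, which enters the list counts, averaged 5.14, under the median signal of all clusters. The second averaged 8.74.

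**Figure D4:**
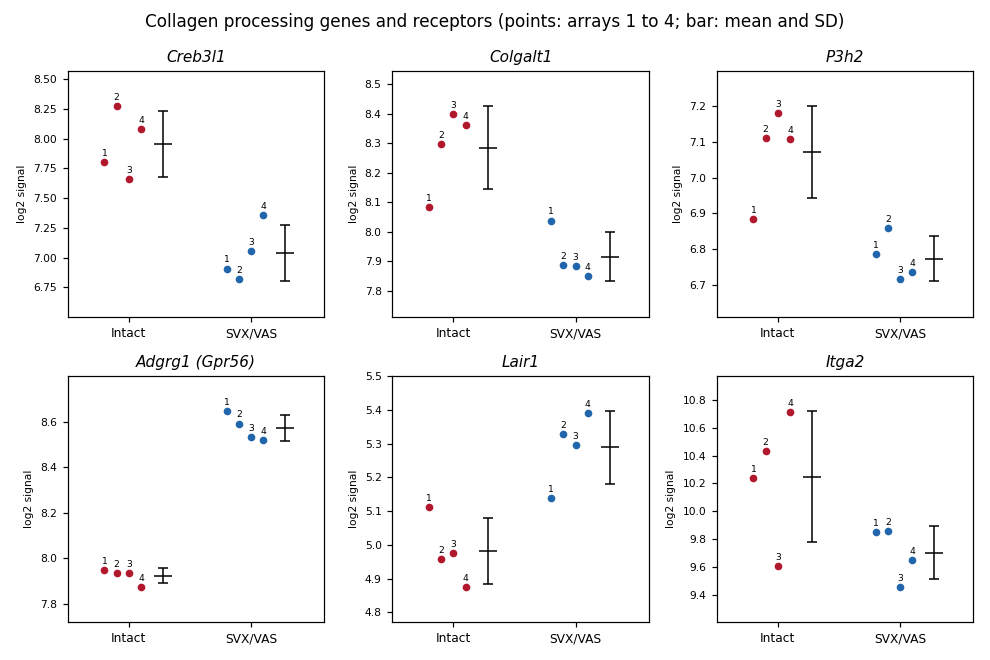
Log2 signal (vertical axis, with its own range in each panel) of the collagen processing genes Creb3l1, Colgalt1 and P3h2 and of the collagen receptors Adgrg1, Lair1 and Itga2 in Intact and SVX/VAS pools; points are arrays with their replicate number and bars are the mean and SD of 4. The groups do not overlap in 5 panels, against 8.17% of all clusters, and in Itga2 Intact pool 3, at 9.61, lies among the SVX/VAS pools. The genes shown have the smallest p by limma in their lists, so the number of separated panels follows from that choice.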

How the data were processed

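Total RNA of 8 pools was measured on Affymetrix Mouse Gene 2.0 ST arrays, 4 pools per group. The authors imported the arrays with RMA background correction, corrected for GC content and averaged probes in Partek 6.6, per the series text and the submitters' processing notes. The log2 values they deposited are not centred, and no source used here gives the genome build, an array background or a step between arrays beyond the name RMA. The deposited p-value column is the unadjusted p of the group comparison and the deposited ratio is Intact over SVX/VAS, per the file headers. Other columns the authors deposited are scores (signed fold change, F and sums of squares), per the file headers. The log2 ratio of that table and the difference of group means differed by at most 5.95e-05, so both hold the same values.

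Fold changes came from limma 3.58.1 in R 4.3.3, fitted to all 41345 clusters without a block or filter, with Benjamini-Hochberg adjustment over all clusters and 95% intervals from the moderated fit (prior degrees of freedom 3.03). The script was tested on simulated data. Samples were grouped and numbered by their labels, and 4 arrays per group limit the precision. Alternatives were the methods' t-test run anew and the authors' p-values, which gave the same counts and are not independent settings. Further ones were an intensity trend, quantile normalization, median centring and filters on dim and on unnamed clusters. The rest were the replicate number as a block, the mean over a gene's clusters, other class bounds, and leaving out each array.

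Symbols were matched through RefSeq (GRCm38.p6), used for names and promoter windows only. All 43 members were found there, and 179 of 181 genes of the other lists were on the array, 8 under older symbols. Chromosomes and map positions are those of the deposited table. Members and lists were chosen with earlier results of these data known. Values on every array are given for the 16 chains with the smallest p and for Col1a1, Col1a2, Col3a1, Col4a1, Col4a2, Col5a2, Col6a1, Col15a1 and Col18a1. Of each pathway list, members past the submitters' criteria and up to 4 with the smallest p are named, and of a cell marker list up to 3.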

Additional observations from a re-analysis of the deposited data

Results flagged for a closer look

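Among 86 sets of 4 pools (43 chains in 2 groups), 2 had a pool that stood far from the other 3 of its group by Dixon's criterion at 95%, which chance alone would flag in about 1 of 20. Col15a1 was 5.75 in SVX/VAS pool 1, against 6.03 to 6.05 in the other SVX/VAS pools. Col7a1 was 6.24 in SVX/VAS pool 3, against 6.01 to 6.03 in the other SVX/VAS pools.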

How the results depend on the processing

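Over 17 alternative settings, 0 of 721 chain values passed the adjusted threshold. The smallest adjusted p was 0.18 by limma, for Col20a1 among clusters above the median signal. Also, 0 values moved beyond the spread between pools. Leaving out 1 of 4 arrays cannot shift a fold change that far, and several settings keep it unchanged. That count is therefore no measure of stability. Over the settings, the log2 fold change of Col4a1 ran from -0.28 to 0.15 and that of Col6a3 from -0.17 to 0.22. The log2 fold change kept 1 sign for 24 of the 43 chains. Chains higher at an unadjusted p, 1 in the analysis reported, numbered 2 with the methods' t-test and the authors' p-values and 0 to 3 when single arrays were left out, and 1 chain, Col1a2, was lower with the replicate block. When single arrays were left out, the median was -0.12 to 0.0064 for fibrillar, -0.045 to 0.081 for basement membrane and 2.4e-05 to 0.091 for other chains, and among clusters above the median signal the fibrillar and other medians were -0.028 and 0.095. Clusters called higher, 21 as reported, numbered 8 with the t-test and the authors' p-values, 82 with the intensity trend, 38 after quantile normalization, 144 among clusters above the median signal, 114 among those with 1 symbol, 0 with the replicate block and 2 to 41 without single arrays. Clusters called lower, 13 as reported, numbered 2, 122, 214 and 120 under the t-test, the trend and the same 2 filters, 0 with the block and 0 to 10 without single arrays. By the submitters' criteria, 372 clusters were higher and 650 lower as reported, against 214 and 172 among those with 1 symbol and 340 lower above the median signal. Of the pathway lists, 1 member (Creb3l1) was called higher with the trend and with either filter, 0 were called lower with the block (Adgrg1, adjusted p 0.21) or without any single array, and 1 to 2 met the criteria in each direction without single arrays. Taken over all clusters, deviations of same-numbered pools from their group means had correlations between groups of 0.068, 0.026, -0.021 and -0.033. These values do not describe the chains alone. Pool 1 was lowest and pool 3 highest in both groups for Col1a1, Col1a2, Col3a1, Col4a1, Col4a2 and Col6a1, among others. Whether same-numbered pools share a factor was not tested for the chains. The filters test fewer clusters and leave-one-out fits use fewer arrays; the cause of the other changes was not tested. The number of arrays limits detection, and signal over background was not available for the analysis.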
